A study of Mus musculus with 2 samples.

Results

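The proteasome genes described here were the 50 protein-coding genes of the mm9 mouse annotation (GENCODE vM1) whose symbol starts with Psma, Psmb, Psmc, Psmd, Psme, Psmf or Psmg followed by a digit, out of 22238 protein-coding genes in all. They were annotated as 52 entries, since Psmd14 and Psmb9 have 2 entries each, and they lie on 16 chromosomes. By role they were 16 genes of the 20S core particle (8 alpha and 8 beta), 17 genes of the 19S regulatory particle (6 ATPases and 11 non-ATPases), 5 immunoproteasome genes (Psmb8, Psmb9, Psmb10, Psme1 and Psme2) and 7 assembly factors (Psmd5, Psmd9, Psmd10 and Psmg1 to Psmg4). The other genes were the activators Psme3 and Psme4, the inhibitor Psmf1, and 2 genes that pass the symbol rule without encoding a proteasome subunit, the meiotic recombination gene Psmc3ip and Psme2b-ps, a locus named as a copy of Psme2.

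Tcf1, the transcription factor encoded by Tcf7, was mapped by ChIP-seq in naïve CD8+ T cells sorted from mouse spleen, with rabbit antiserum raised against the full-length protein. There was 1 WT library and 1 Tcf1-deficient library, and the authors called peaks once, on the WT fragments with those of the Tcf1-deficient library as background. Both groups were sorted as GFP+ TCRbeta+ CD62Lhi CD44lo-med CD8+ cells from mice on the C57BL/6 background, aged 6 to 12 weeks, of both sexes over the whole study. The sources disagree on the control mice. The sample title names Tcf1-deficient cells, the genotype field gives Tcf1-/-Lef1-/-, the series description has hCD2-Cre and Rosa26-lsl-GFP in both groups with Tcf1 and Lef1 either wild type or floxed, and the study's methods give Cd4-Cre+ Tcf7 fl/fl mice (Tcf7-/-). In either account deletion depended on a T cell Cre, and Cd4-Cre already acts in thymocytes, whereas hCD2-Cre acts mainly in mature T cells. The number of mice behind each library is not given in the sources used here. A peak list carries no expression values, so neither the sorted cell type nor the deletion of the floxed exons could be checked in it.

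The proteasome degrades proteins marked with ubiquitin. Its barrel-shaped 20S core holds the proteolytic sites on beta subunits and is closed by rings of alpha subunits, and the 19S particle recognises, unfolds and feeds substrates into it. In lymphocytes and in cells exposed to interferon-gamma, 3 catalytic beta subunits can be replaced by Psmb8, Psmb9 and Psmb10 to form the immunoproteasome, which together with the PA28 activator (Psme1 and Psme2) favours the production of peptides for MHC class I, the molecules that CD8+ T cells recognise.

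After removal of duplicates the WT library held 36938606 fragments and the Tcf1-deficient library 27625250. The pileup of a peak is the number of WT fragments over its summit, and its fold enrichment is the pileup plus 1 over the local level of the control library plus 1. That control level was never under a floor of 5.42 fragments, so that 25 WT fragments (95% Poisson interval 16.2 to 36.9) were needed there to reach 4-fold. High-confidence peaks were those enriched 4-fold or more with p below 1e-05 and q below 0.05, the definition in the methods, and 19042 of 22286 deposited peaks met it. A promoter peak is one whose summit lay within 1 kb of an annotated start site. With 1 library per group there was no replicate check and no test between genotypes. Intervals of WT fragments and of fold enrichments are 95% Poisson intervals of the pileup and cover counting error only. Intervals of shares are 95% exact binomial ones over genes or peaks, which are not replicates, and they carry neither the error of the fragment counts nor that of the libraries. Where WT fragments are given without a control level, it was at the floor.

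The DNA that carries these peaks is shown first for 5 promoters, each as the 120 bases before the annotated start site in mm9 (NCBIM37), read 5′ to 3′ on the strand of the gene. Psmc1 and Psmd9 had strong promoter peaks, Psmg3 and Psmb5 held similar sequence cores without a deposited peak, and Psmd10 held a Tcf/Lef core near its start site. Capitals mark cores on either strand, namely ETS (CGGAAGT), Sp/Klf (CCCGCCC), NF-Y (CCAAT), Tcf/Lef (ATCAAAG), antioxidant-type (TGACNNNGC), Runx (TGTGGTT) and interferon-stimulated type (GAAANNGAA).
Psmc1 (chr12:101348276-101348395, plus strand): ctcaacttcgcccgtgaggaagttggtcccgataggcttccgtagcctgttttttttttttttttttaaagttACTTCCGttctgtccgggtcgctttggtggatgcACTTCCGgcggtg
Psmd9 (chr5:123678079-123678198, plus strand): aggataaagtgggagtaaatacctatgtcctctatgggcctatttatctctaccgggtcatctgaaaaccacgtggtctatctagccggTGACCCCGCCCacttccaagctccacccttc
Psmd10 (chrX:137491268-137491387, minus strand): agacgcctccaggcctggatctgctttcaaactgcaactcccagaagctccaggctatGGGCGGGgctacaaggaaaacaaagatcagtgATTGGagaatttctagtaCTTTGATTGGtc
Psmg3 (chr5:140302798-140302917, minus strand): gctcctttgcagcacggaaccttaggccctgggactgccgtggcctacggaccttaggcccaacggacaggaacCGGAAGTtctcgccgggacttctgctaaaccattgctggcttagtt
Psmb5 (chr14:55236852-55236971, minus strand): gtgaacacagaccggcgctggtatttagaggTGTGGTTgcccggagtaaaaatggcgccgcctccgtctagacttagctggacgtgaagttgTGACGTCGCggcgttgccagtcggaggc
The Psmc1 window held 2 ETS cores, both read on the opposite strand of the gene. In Psmd9 the antioxidant-type and Sp/Klf cores overlapped, as did the Tcf/Lef and NF-Y cores closest to the Psmd10 start site. Psmg3 held the ETS core and Psmb5 held a Runx core and an antioxidant-type core, and neither gene had a deposited peak within 10 kb.

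A high-confidence Tcf1 promoter peak was found at 33 of the 50 proteasome genes (66.0%, exact binomial interval 51.2% to 78.8%), against 32.8% of all protein-coding genes (7300 of 22238). Counting any deposited peak gave 38 of 50 (76.0%), against 36.7% of all protein-coding genes. Each of the 33 genes had exactly 1 such peak, and no peak was shared between proteasome genes. A further 5 genes had a promoter peak under the fold minimum, and 12 had none. The peaks were spread over the constitutive particle. They were found at 12 of 16 genes of the 20S core (75.0%), 13 of 17 of the 19S particle (76.5%) and 6 of 7 assembly factors (85.7%), and at 1 of 5 immunoproteasome genes (exact interval 0.505% to 71.6%). Without Psma8 and Psmb11, whose products are known from testis and from thymic epithelium, the 20S core and 19S particle together reached 25 of 31 (80.6%). Whether the classes differ was not tested.

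**Figure D1:**
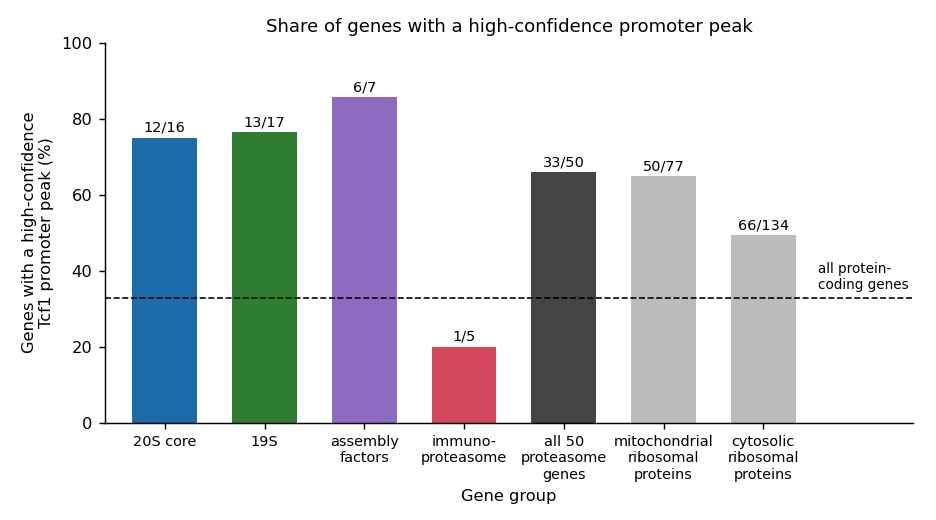
Share of genes (y axis, %) with a high-confidence Tcf1 promoter peak in 7 gene groups (x axis), with counts over the bars and the share of all protein-coding genes, 32.8%, as a dashed line. The 20S core, 19S and assembly factor bars lie at 75.0%, 76.5% and 85.7%, and the immunoproteasome bar, at 1 of 5 genes, is the only one of the 7 under the line.

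Among the alpha subunits, which form the outer rings and the gate of the core, 7 of 8 genes had a high-confidence promoter peak, with a median fold enrichment of 5.86 (4.21 to 7.48). Psma2 was the strongest, with 47 WT fragments (34.5 to 62.5) over the floor of 5.42, 7.48-fold enriched. Its summit lay 113 bp upstream of the start site and 217 bp separated that start site from the one of Mrpl32 on the opposite strand. Psma6 had more WT fragments, 61, but also the highest control level at any proteasome promoter peak, 7.35, which gave 7.42. This peak was at an inner start site, 14553 bp from the outermost one, which had no promoter peak. Psma3 was the lowest, with 26 WT fragments (17.0 to 38.1) 56 bp downstream and a fold enrichment of 4.21, and its counting interval spans the fold minimum, as do those of Psma5 (4.36) and Psma7 (4.83). The remaining peaks were those of Psma1 (7.32) and Psma4 (5.86). Psma8, the testis-specific alpha subunit, had no promoter peak, and its nearest one lay 11.3 kb into the gene (fold enrichment 7.32).

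The beta subunits were split more widely. Psmb4 (ENSMUSG00000005779.6), a non-catalytic beta subunit, had the largest fold enrichment of all 50 genes, within counting error of Psmg2, at chr3:94690591-94691146. It held 92 WT fragments (74.2 to 113) over the floor of 5.42, a fold enrichment of 14.5 (11.7 to 17.7), and its summit lay 5 bp upstream of the start site. The genes of the 3 constitutive catalytic subunits gave 3 different values. Psmb7, with trypsin-like activity, had 79 WT fragments (62.5 to 98.5) 27 bp downstream of the start site and a fold enrichment of 12.5 (9.90 to 15.5), and Psmb6, with caspase-like activity, had 50 and 7.95 (5.94 to 10.4). Psmb5, with chymotrypsin-like activity, had no deposited promoter peak, and its nearest deposited peak lay 14.5 kb away (fold enrichment 5.42), closest to 4931414P19Rik. Of the non-catalytic genes, Psmb2 reached 6.54 and Psmb3 4.21, the lowest beta gene past the minimum, with 26 WT fragments and a summit 736 bp upstream of the start site. Psmb1 had 22 WT fragments (13.8 to 33.3) at 37 bp upstream and a fold enrichment of 3.58, under the minimum. A separate stronger peak (12.6, 80 WT fragments) lay 1531 bp upstream of Psmb1, 81 bp from the start site of Tbp, the TATA-binding protein. Psmb11, the thymus-specific beta subunit, had no peak nearer than 16.6 kb, and that one (10.3) lay 511 bp from the start site of Cdh24.

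In the 19S base, the ATPases form a ring that unfolds substrates, and 4 of the 6 genes had a high-confidence promoter peak (median fold enrichment 8.18). Psmc1 (ENSMUSG00000021178.8) was the strongest, at chr12:101348144-101348632, with 85 WT fragments (67.9 to 105) over 5.42 and a fold enrichment of 13.4 (10.7 to 16.5). Its summit lay 36 bp upstream of the start site, 8 bp from the nearer of the 2 ETS cores shown above. Psmc4 (8.41, 53 WT fragments, 39.7 to 69.3, 77 bp upstream) and Psmc2 (7.94, 60 WT fragments over a control level of 6.69) followed, and Psmc6 was the lowest at 6.39 (40 WT fragments, 28.6 to 54.5, 33 bp upstream). All 4 intervals lay above the minimum. Psmc3 and Psmc5 had no promoter peak. The deposited peaks nearest to them lay 11.3 kb and 16.9 kb away and fell within 100 bp of the start sites of other genes, Rapsn (fold enrichment 26.5) and Smarcd2 (4.10).

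The non-ATPase genes of the 19S particle encode its scaffolds, ubiquitin receptors and lid, and 9 of 11 had a high-confidence promoter peak. Their median fold enrichment was 5.76, and only Psmd3 and Psmd8, both lid subunits, lay at 8 or more. Psmd3 had 79 WT fragments (62.5 to 98.5), 12.5-fold enriched, 12 bp upstream of the start site, and Psmd8 had 53 (39.7 to 69.3) and 8.41, with its summit 110 bp downstream. The others ran from 6.54 for the scaffold gene Psmd1, through Psmd12 (6.08), Psmd11 (5.76), Psmd7 (5.61) and the deubiquitinase gene Psmd14 (5.45, equal to Psmd6), to 4.13 for Psmd13, another lid subunit. At Psmd13 there were 28 WT fragments (18.6 to 40.5) 73 bp upstream over a control level of 6.02, the lowest fold enrichment of the 33 genes. Psmd4, a ubiquitin receptor, had 23 WT fragments (14.6 to 34.5) 1 bp downstream of its start site and a fold enrichment of 3.74, under the minimum. Psmd2, the other large scaffold, had no promoter peak, and the nearest one lay 13.3 kb downstream at the start site of Eif4g1 (4.99).

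Assembly factors are chaperones that build the particles and leave them, and 6 of 7 had a high-confidence promoter peak, with a median fold enrichment of 9.27. For the core, Psmg2 had 94 WT fragments (76.0 to 115), the most of any proteasome gene, over a control level of 5.57, a fold enrichment of 14.5 (11.7 to 17.7). Its summit lay 231 bp upstream of its start site but 32 bp from the start site of Cep76 on the opposite strand, so the peak cannot be assigned to either gene. Psmg4 reached 9.04 (57 WT fragments, 43.2 to 73.9, summit 190 bp downstream) and Psmg1 6.23, whereas Psmg3 had no deposited peak within 30 kb. For the 19S base, Psmd5 had 76 WT fragments (59.9 to 95.1) 84 bp upstream over a control level of 6.80, 9.87-fold enriched. Psmd9 had 60 (45.8 to 77.2) 9 bp upstream, 9.50-fold enriched, and Psmd10, which encodes gankyrin, was the lowest with 33 (22.7 to 46.3) 126 bp upstream and 5.30.

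The inhibitor gene Psmf1 (PI31) had 87 WT fragments (69.7 to 107), 15 bp downstream of an inner start site, and a fold enrichment of 13.7, behind only Psmb4 and Psmg2. Neither of the other activator genes had a high-confidence peak. Psme4, which encodes the PA200 cap, had 27 WT fragments (17.8 to 39.3) 30 bp upstream over 6.02 and a fold enrichment of 3.99, just under the minimum, and Psme3, which encodes the nuclear PA28 gamma, had no deposited peak within 30 kb. Psmc3ip lay under the minimum as well (3.90, 24 WT fragments, 15.4 to 35.7, 21 bp upstream). Psme2b-ps had no promoter peak, and how its near-identical sequence to Psme2 affected alignment was not tested.

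Of the immunoproteasome genes, Psme2 (ENSMUSG00000079197.4), the beta subunit of PA28, had the only high-confidence promoter peak. It spanned chr14:56209541-56210650, which at 1110 bp was the widest promoter peak of any proteasome gene, and held 51 WT fragments (38.0 to 67.1) over 5.42, a fold enrichment of 8.10 (6.07 to 10.6). The summit lay 4 bp downstream of a Psme2 start site and the start site of Rnf31, a ubiquitin ligase subunit on the opposite strand, was 595 bp away. Psme1, the PA28 alpha subunit in the same gene cluster, had no promoter peak. The nearest deposited peak, with 88 WT fragments and a fold enrichment of 13.9, lay 4897 bp downstream of its closest start site and 343 bp from the start site of Fam158a.

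The 3 inducible catalytic subunits had no high-confidence promoter peak. Psmb9, which replaces Psmb6, had 23 WT fragments (14.6 to 34.5) over 5.42, 40 bp upstream of a start site, and a fold enrichment of 3.74 (2.43 to 5.53), so that counting error alone covers either side of the minimum. It shares this promoter with the peptide transporter gene Tap1, whose start site on the opposite strand is 18 bp away. Psmb8, which replaces Psmb5, had a peak just outside the 1-kb window, 1064 bp upstream, with 39 WT fragments where the control level was 8.69, 4.13-fold enriched. Psmb10, which replaces Psmb7, had no deposited peak within 30 kb. Set beside their constitutive counterparts, Psmb6 held 50 WT fragments (37.1 to 65.9) against 23 (14.6 to 34.5) at Psmb9, and Psmb7 held 79 where Psmb10 had no peak, but neither Psmb5 nor Psmb8 had one within 1 kb. The intervals of Psmb6 and Psmb9 did not overlap, with 1 library behind both values.

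**Figure D2:**
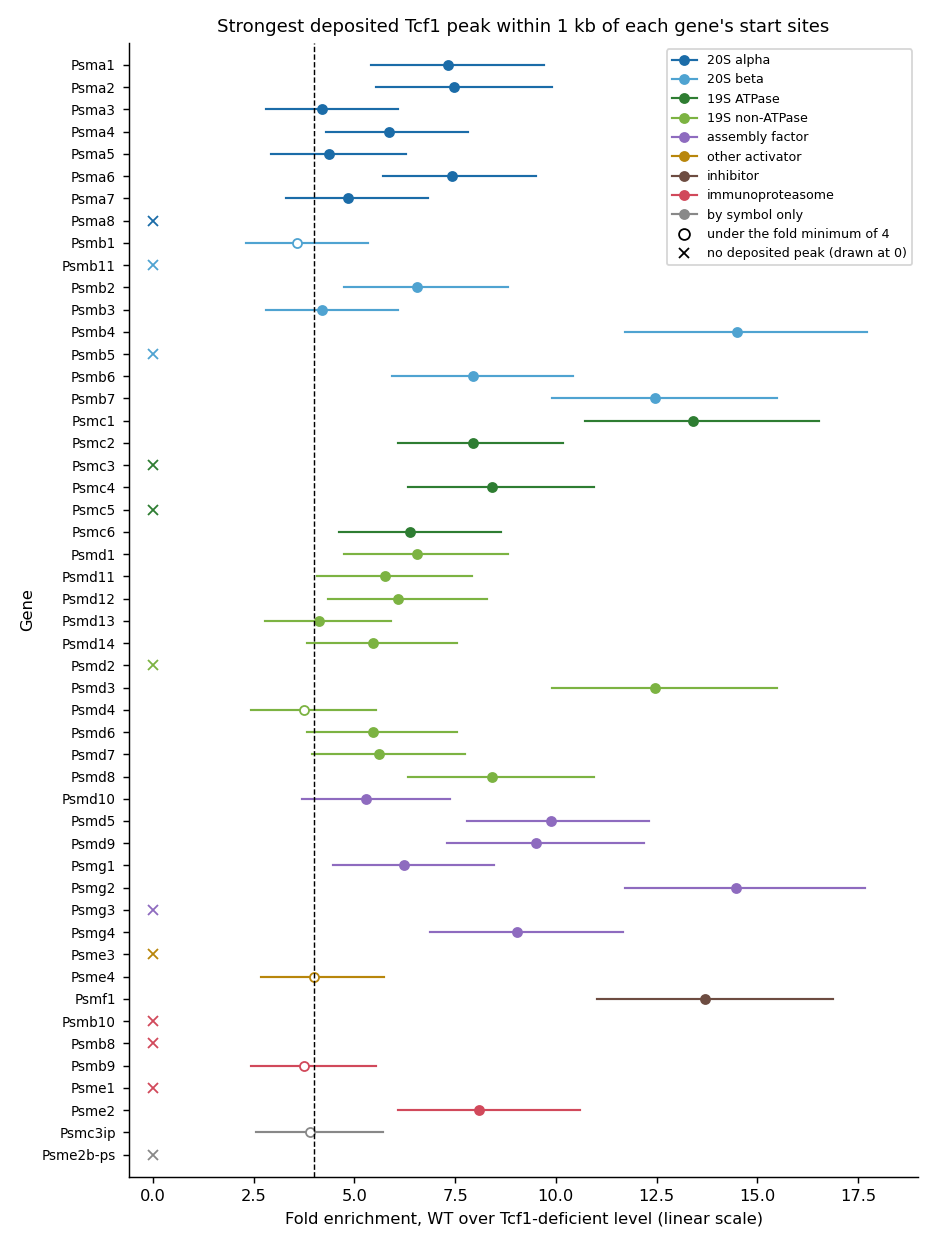
Fold enrichment (x axis, linear) of the strongest deposited Tcf1 peak within 1 kb of the start sites of each of the 50 proteasome genes (y axis), coloured by class, with lines for the 95% Poisson interval of the WT pileup. Open circles are the 5 genes under the minimum of 4 (dashed line), crosses at 0 are the 12 genes without a deposited peak, and Psmb4 and Psmg2 lie farthest right at 14.5.

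The same genes were called with another set of start sites. For 41 of the 50 genes a promoter of the RefSeq table of GRCm38.p6 was found letter for letter in mm9, and the RefSeq start sites gave a high-confidence promoter peak at 28 of these, with 0 genes gained and 0 lost. Taking for each gene the RefSeq start site closest to a GENCODE one, the largest distance was 405 bp, at Psmb8, and it placed the upstream peak of that gene 1538 bp away. Psmc2 had a second RefSeq start site 1464 bp from the nearest GENCODE one, with a separate high-confidence peak 30 bp from it (6.39). Beyond promoters, 17 proteasome genes had a high-confidence peak at 1 to 10 kb from a start site (20 peaks), against 21.8% of all protein-coding genes (4859 of 22238), and among the genes without any deposited promoter peak these were Psmb8 and Psme1.

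In height, the peaks of proteasome genes differed little from those of other promoters. Across the 33 genes fold enrichment had a median of 7.32 (quartiles 5.61 and 9.04), against 6.70 (5.26 to 9.50) over all protein-coding genes with a promoter peak, and 17 of the 33 lay above that median. A fold enrichment of 8 or more was reached by 12 of 33 (36.4%), against 35.8% of all, and 20 or more by 0 of 33, against 4.41%. The median pileup was 46 fragments (26 to 94), against 44. The control level stood at its floor at 27 of the 33 genes (81.8%), against 85.0%, so that at these peaks the fold enrichment was set by the WT pileup alone. For 9 of the 33 genes, and for all 5 genes under the minimum, the counting interval spanned the minimum.

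The median distance between summit and start site was 56 bp, against 86 bp over all protein-coding genes with a promoter peak, and within 100 bp at 26 of 33 genes (78.8%), against 54.6%. It was upstream at 22 of 33, against 5180 of 7300 for all. The farthest was that of Psmb3, at 736 bp. The median was 31.5 bp over the 12 genes at a fold enrichment of 8 or more and 36.5 bp over all 38 genes with a deposited peak. The peaks had a median width of 459 bp, against 565 bp, and 5 exceeded 800 bp, those of Psme2 (1110 bp), Psma2 (1007 bp), Psmb3 (975 bp), Psmd3 (840 bp) and Psma1 (827 bp).

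**Figure D3:**
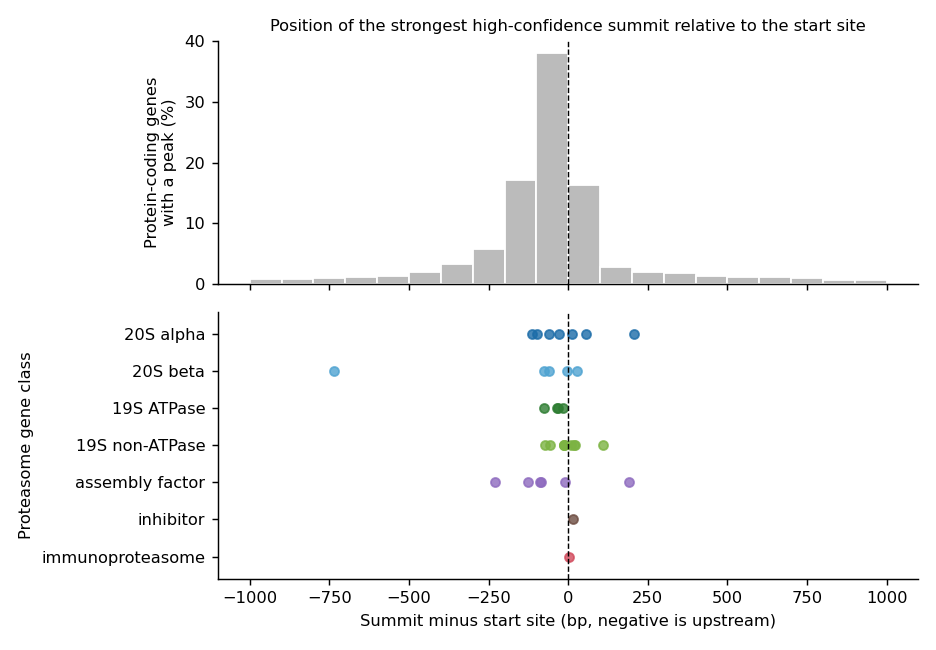
Distance of the strongest high-confidence promoter summit from the start site (x axis, bp, negative is upstream), as a histogram in 100-bp bins over all protein-coding genes (top, y axis in %) and as 1 point per proteasome gene in each class (bottom). The tallest bin, 100 to 0 bp upstream, holds 38.1% of all protein-coding genes, and 26 of the 33 points lie within 100 bp of the start site.

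Promoter base composition and shared start sites moved with the presence of a peak across all genes. In 300-base windows from 250 bases before to 50 after the outermost start site of each gene, the share of protein-coding genes with a high-confidence peak was 8.06% at a GC content under 45%, 24.4% at 45% to 55%, 43.7% at 55% to 65% and 51.8% at 65% or more. Proteasome windows had a median GC content of 56.2%, against 55.3% for all and 60.7% for all genes with a peak, and 0 of 50 were under 45%. Within the bins, 14 of 22 proteasome genes had a peak at 45% to 55%, 12 of 20 at 55% to 65% and 7 of 8 at 65% or more. The peaks of Psma6 and Psmf1 lay at inner start sites, 14553 and 2893 bp from those of their windows. Counting only peaks within 1 kb of the window's own start site gave 12 of 22, 12 of 20 and 7 of 8, against 21.1%, 41.2% and 49.4% of all genes. By either count the share was above that of all genes in each of the 3 bins that held proteasome genes. Among the immunoproteasome genes, Psmb10 and Psme1 were at 45.7%, Psmb8 at 56.3%, Psme2 at 58.0% and Psmb9 at 66.7%. The windows of Psme1, Psmb8 and Psmb9 were set at chr14:56196960, chr17:34334666 and chr17:34324709. Their RefSeq start sites lay at 56197331, 34335140 and 34324275. Around the summits, within 100 bp, the median GC content was 63.2% for proteasome peaks and 63.2% for all promoter peaks.

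**Figure D4:**
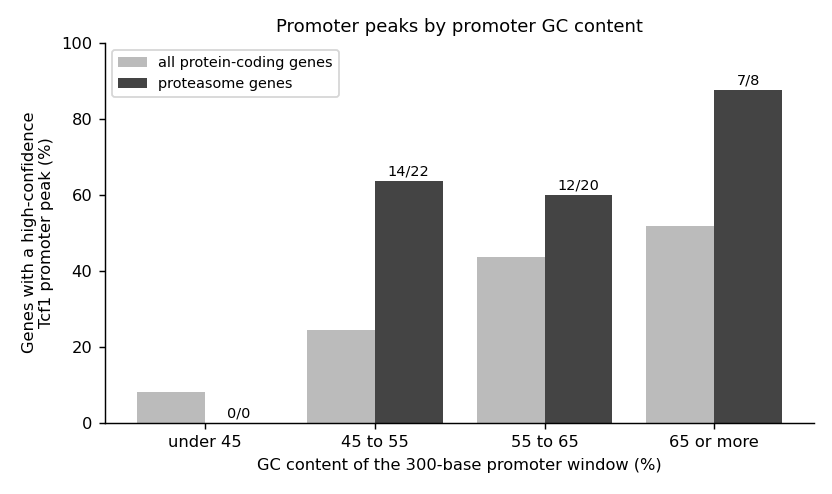
Share of genes (y axis, %) with a high-confidence Tcf1 promoter peak by GC content of the 300-base promoter window (x axis, %), for all protein-coding genes (light) and proteasome genes (dark, counts over the bars). The light bars climb from 8.06% to 51.8%, and the dark bars stand at 14 of 22, 12 of 20 and 7 of 8 genes.

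Another protein-coding start site lay within 1 kb at 11 proteasome genes, against 13.3% of all protein-coding genes. Over all genes a high-confidence peak was found at 64.4% of those with such a neighbour and at 28.0% of those without. Among proteasome genes the counts were 9 of 11 and 24 of 39. Genes without a neighbour thus made up 24 of the 33 with a peak, against 5393 of 7300 over all protein-coding genes. The 9 were Psma2 (with Mrpl32), Psma4 (AY074887), Psma7 (Ss18l1), Psmc2 (Dnajc2), Psmd10 (Atg4a), Psmd13 (Sirt3), Psmg2 (Cep76), Psme2 (Rnf31) and Psmd1 (Htr2b). At 5 of them the summit was nearer to the neighbour, at 32 bp from Cep76 and from Sirt3, 15 bp from Dnajc2, 53 bp from Atg4a and 104 bp from Mrpl32. Assigning each peak only to the nearest protein-coding start site left 28 of the 33 genes. Psmc5, 75 bp from Ftsj3, and Psmb9, 18 bp from Tap1, had a neighbour and no high-confidence peak.

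The Tcf/Lef core, the letters ATCAAAG on either strand, was within 100 bp of 0 of the 33 proteasome summits, for which the exact upper bound is 10.6%, against 4.81% of the 6425 promoter peaks of all protein-coding genes. Within 200 bp it was found at 2 summits (6.06%), against 6.16%. In promoter windows the core occurred at Psmd1, Psmd4 and Psmd10, 3 of 50 genes, against 3.48% of all. At Psmd10, shown above, it lay close to the start site, whereas the summit was 126 bp upstream of that site.

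The ETS and antioxidant-type cores stood higher than in all promoter peaks, although within 100 bp their intervals covered the shares of all promoter peaks. ETS factors, which read the letters CGGAAGT, include Ets1, Gabpa and Elk4. This core was within 100 bp of 9 of 33 summits (27.3%, exact interval 13.3% to 45.5%), against 14.9% of all promoter peaks, and within 200 bp of 14 (42.4%), against 18.9%. The 9 sites are shown to let the flanks be compared, each with 10 bases to either side of the core in capitals, in mm9, 5′ to 3′ on the strand given, with the distance of the core to the summit.
Psma4 (chr9:54798553-54798579, minus strand, 68 bp): cgggaggacgCGGAAGTtctcccagtg
Psmb4 (chr3:94690869-94690895, plus strand, 6 bp): tcaccggaaaCGGAAGTggtcctttgc
Psmc1 (chr12:101348339-101348365, minus strand, 8 bp): ccggacagaaCGGAAGTaactttaaaa
Psmc2 (chr5:21290998-21291024, minus strand, 73 bp): agccccatccCGGAAGTgctcactggt
Psmd12 (chr11:107340814-107340840, minus strand, 43 bp): tcactcgcacCGGAAGTcgcccgctca
Psmd13 (chr7:148068192-148068218, plus strand, 35 bp): agaagtttagCGGAAGTcaagaacgcg
Psmd14 (chr2:61549789-61549815, plus strand, 34 bp): gccgggaaccCGGAAGTacttctctgc
Psmd6 (chr14:14953487-14953513, minus strand, 23 bp): gagacgcgacCGGAAGTcagactggcg
Psmd7 (chr8:110112368-110112394, minus strand, 14 bp): gctctgggagCGGAAGTcgactgtgca
Of these, 5 belonged to non-ATPase subunits of the 19S particle, 2 to its ATPases, 1 to an alpha and 1 to a beta subunit. The immunoproteasome and assembly factor peaks held 0. The cores of Psmb4 and Psmc1 were the closest to a summit, at 6 and 8 bp. At Psmd13 there were 3 copies and at Psmc1 there were 2, and the copy nearest to the summit is shown. The core did not mark every promoter with a peak, nor were promoters without a peak free of it. In the 300-base windows, set at the outermost start site, it was found at 15 of 50 proteasome genes, against 7.78% of all protein-coding genes. These 15 split into 10 of the 33 genes with a high-confidence peak, against 16.4% of all genes with such a peak, and 5 of the 17 without (Psma8, Psmb1, Psme3, Psme4 and Psmg3). Psmd13 was not among the 10, since its window lay at a start site 446 bp from the one at its peak.

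The antioxidant-type core TGACNNNGC is the form bound by Nfe2l1 and Nfe2l2, known activators of proteasome genes. It was within 50 bp of 3 of 33 summits (9.09%, 1.92% to 24.3%), against 5.65% of all promoter peaks, and within 100 bp of 8 (24.2%, 11.1% to 42.3%), against 11.3%, at the genes below and at Psmg2. These sites are shown with 10 bases to either side because the unset letters differ between them.
Psma1 (chr7:121419529-121419557, plus strand, 77 bp): agcgacaaccTGACCCAGCagcggacaca
Psma3 (chr12:72075710-72075738, minus strand, 38 bp): ctcatggtgcTGACCCGGCaggccgcgga
Psmb2 (chr4:126354863-126354891, plus strand, 79 bp): gccgcgccagTGACTGGGCcgtcgcgcgt
Psmb6 (chr11:70338840-70338868, plus strand, 45 bp): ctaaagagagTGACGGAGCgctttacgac
Psmd3 (chr11:98543903-98543931, minus strand, 61 bp): ggccgcacgaTGACCGAGCagctgcaaac
Psmd7 (chr8:110112472-110112500, plus strand, 91 bp): cttaggctatTGACGAAGCttggcattga
Psmd9 (chr5:123678158-123678186, plus strand, 18 bp): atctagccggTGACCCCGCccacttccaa
They fell in 2 alpha, 2 beta and 2 non-ATPase genes and in the assembly factor genes Psmd9 and Psmg2. Only Psmd7 had both this core and the ETS core. In the promoter windows, where the core was found at 7 of 50 proteasome genes (14.0%) against 12.5% of all, the shares lay closer together. Among all genes with a high-confidence peak, 15.2% had it in the window, and 6 of the 33 proteasome genes with one did.

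Of the other letters searched, Sp/Klf (CCCGCCC) was the most frequent, within 100 bp of 14 of 33 summits (42.4%) against 39.9% of all promoter peaks, and the ETS or the Sp/Klf core was found at 20 of 33, against 49.7% of all. NF-Y (CCAAT) was at 7 (21.2% against 26.7%), the interferon-stimulated type (GAAANNGAA) at 3 (9.09% against 5.14%) and Runx (TGTGGTT) at 2 (6.06% against 4.90%). The CRE type (TGACGT) was at 1 (3.03% against 12.2%) and the Stat type (TTCNNNGAA) at 1 (3.03% against 5.18%). Within 100 bp the exact interval of every core searched covered the share of all promoter peaks, and none of these differences was tested. Within 200 bp the intervals of 3 cores lay above it, those of ETS (25.5% to 60.8%), the antioxidant type (39.4%, 22.9% to 57.9%, against 1218 of 6425 peaks) and the interferon-stimulated type (24.2%, 11.1% to 42.3%, against 10.2%). A match of letters describes the sequence and does not show which factor was bound.

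**Figure D5:**
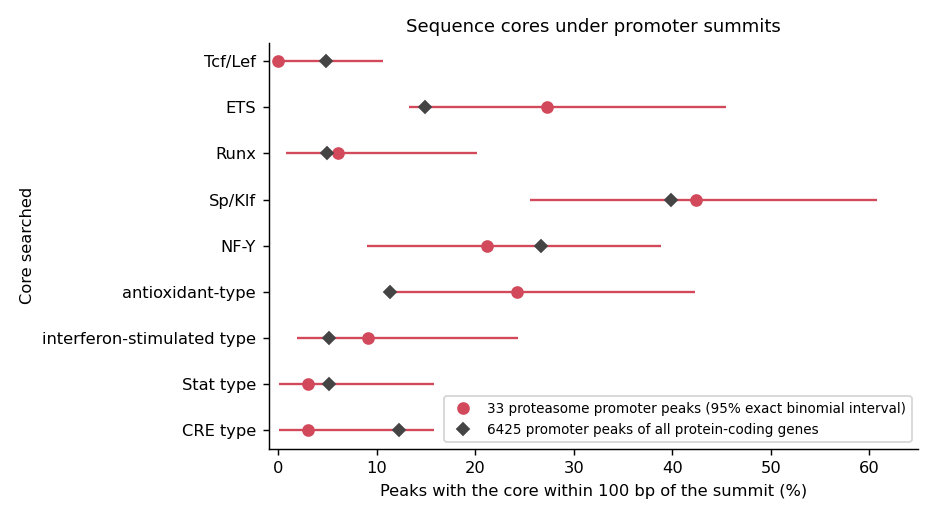
Share of peaks (x axis, %) with each sequence core (y axis) within 100 bp of the summit, for the 33 proteasome promoter peaks (circles, 95% exact binomial intervals) and the 6425 promoter peaks of all protein-coding genes (diamonds). Tcf/Lef stands at 0% against 4.81%, ETS at 27.3% against 14.9% and Sp/Klf at 42.4% against 39.9%.

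Genes that work with the proteasome were read from lists. Of 14 associated factors in the annotation, 11 had a high-confidence promoter peak (median fold enrichment 6.54), against 32.8% of all protein-coding genes. The strongest were the deubiquitinase gene Uchl5 (9.82) and the shuttle gene Ubqln1 (8.73, with its summit 869 bp downstream), and the ubiquitin receptor Adrm1 reached 7.30. Usp14, another deubiquitinase of the 19S particle, and Pomp, which matures the core, lay under the minimum at 3.43 and 3.90, and AI314180 had no peak. Of 5 genes that control proteasome transcription, 3 had a peak, against the same 32.8%. These were the factors Nfe2l1 (4.83) and Nfe2l2 (6.54, with its summit 994 bp downstream, just inside the window) and the segregase gene Vcp (4.99). The protease Ddi2 and the glycanase Ngly1, which process Nfe2l1, had none.

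Among the genes listed for class I antigen processing, Tapbp (10.3), B2m (7.95), Irf1 (5.45) and Tap2 (4.67) had a high-confidence promoter peak, as did 32.8% of all protein-coding genes. Tap1 had only the peak under the minimum that it shares with Psmb9 (3.74), and Erap1 had none. Nlrc5 had none at its annotated start sites, but the annotation types that entry as a lincRNA, so this may not describe the coding gene. The summit at Tap2, in the same cluster on chromosome 17 as Psmb8 and Psmb9, lay 5869 bp from the nearest Psmb8 start site.

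Ribosomal protein genes, which most cells also transcribe, were taken by symbol alone. Mitochondrial ones start with Mrpl or Mrps and cytosolic ones with Rpl or Rps (without Rps6k), followed by a digit. Whether each symbol encodes a ribosomal subunit was not checked, so the lists may hold copies or relatives that change these shares. Mitochondrial ribosomal protein genes had a high-confidence promoter peak at 50 of 77 (64.9%, exact interval 53.2% to 75.5%), with a median fold enrichment of 7.40, and cytosolic ribosomal protein genes at 66 of 134 (49.3%, 40.5% to 58.0%), with a median of 6.90. The proteasome share of 66.0% (51.2% to 78.8%) lay within the interval of the mitochondrial group and above that of the cytosolic group, and neither difference was tested. The share of summits within 100 bp of a start site was 78.8% for proteasome genes, 78.8% for cytosolic and 68.0% for mitochondrial ribosomal protein genes.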

How the data were processed

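Tcf1 ChIP-seq was performed in 1 WT and 1 Tcf1-deficient library of naïve CD8+ T cells, and the deposited data analysed here are 1 peak list. The authors aligned reads to mm9 with Bowtie2 2.2.5 and called peaks from read pairs with MACS2 2.1.1 (p below 1e-05, at most 1 fragment kept at a position), setting WT against the Tcf1-deficient library. Per the file headers, 46428124 WT fragments were read and 36938606 (79.6%) kept, and 36118114 and 27625250 (76.5%) in the control. The deposited signal column is the WT coverage at the summit (pileup). The deposited fold enrichment is a ratio to the control level, and the deposited −log10 p-value and −log10 q-value are the peak caller's, which compare 2 libraries and not genotypes. The header states that q was not calculated, but the column holds q values.

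The control level was computed back from the pileup and the fold enrichment. Genes, start sites (all transcripts) and sequence came from GENCODE vM1 and NCBIM37, and entries with the same symbol were joined. For each gene the strongest peak with a summit within 1 kb of a start site was kept. Cores were searched as exact letters on both strands within 100 bp of summits. Intervals are Poisson for pileups and exact (Clopper-Pearson) for shares. No test was run, since each group has 1 library. Named with full values, by rule, were the immunoproteasome genes, the largest and smallest of each class, the 10 largest overall and all genes without a high-confidence peak, and the other genes are given by their fold enrichment. For the class I antigen processing list, 1 gene is not reported here. The members, gene lists and cores were chosen with earlier results of these data known. Python 3.11.15, pandas 2.3.3, numpy 2.4.6, scipy 1.17.1 and matplotlib 3.10.9 were used, and the scripts were tested on simulated data. Of the alternatives for the fold minimum, q limit, window, start sites and flank, 36 were planned and 3 (1 row per annotated entry, nearest protein-coding start site only, RefSeq start sites) were chosen after seeing the data.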

Additional observations from a re-analysis of the deposited data

How the results depend on the processing

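Over 39 alternatives for 8 results, 33 stayed within tolerance and 6 did not. The tolerance was 1.5 times for counts and the 95% interval of the reported value for medians and shares, which is wide with 33 genes. A fold minimum of 8 left 12 proteasome genes with a promoter peak (24.0%, against 11.8% of all protein-coding genes), 2 of the 20S core and 4 of the 19S particle, and raised the median fold enrichment to 11.2. This follows from the stricter minimum itself. The immunoproteasome count of 1 became 2 without a fold minimum, by adding Psmb9, and 2 with a window of 2.5 kb, by adding Psmb8, which was also added when any base of the peak, not its summit, had to lie within 1 kb. Under the other alternatives the count of 33 ran from 28 (at a fold minimum of 5, with RefSeq start sites, matched for 41 genes, or when a peak went only to the nearest protein-coding start site) to 38 and the median fold enrichment from 6.47 to 7.71. The median distance of 56 bp became 31.5 bp at a fold minimum of 8, 36.5 bp without one and 57 bp with 1 start site per gene, which left 31 genes, without Psma6 and Psmf1. The ETS share of 27.3% was 21.2% within 50 bp and 42.4% within 200 bp, and the antioxidant-type share of 24.2% was 9.09% and 39.4%. The changes to 31.5 bp, 36.5 bp and 42.4% exceed 1.5 times and lay inside those intervals, as did 39.4%, whereas 9.09% lay outside its interval of 11.1% to 42.3%. The proteasome share stayed above that of all protein-coding genes in each setting where both were computed. The depth limits the lower peaks, since 9 of 33 counting intervals span the minimum. No replicate could be left out. No paired analysis was possible because each group has 1 library and no result comes from a test.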
